A study of Homo sapiens with 16 samples.

Results

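The 84 genes described here encode the proteins of the cytosolic ribosome. They were chosen by symbol from a RefSeq table of 20056 protein-coding genes: RPL or RPS with a number and an optional suffix A, X, L or L1, the stalk genes RPLP0, RPLP1 and RPLP2, and RPSA. No measured value entered the choice. The 84 genes comprise 32 of the small subunit, 49 of the large subunit and 3 of the stalk, and 7 of them (RPL10L, RPS27L, RPL3L, RPL22L1, RPL39L, RPL26L1 and RPL7L1) are paralogs of another member.

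N6-methyladenosine (m6A), a methyl mark on adenosines of messenger RNA, was mapped by m6A-eCLIP in an established human glioma line. In this assay polyA RNA is fragmented and crosslinked to an m6A antibody, and the bound bases are called from the sequencing. The cells were U87-R with STM2457 (2 libraries), U87-R (3 libraries) and U87 MG, written U87 below (3 libraries). U87-R is a derivative of U87 MG that resists temozolomide (TMZ), an alkylating drug, and all U87-R cells, treated or not, grew in medium with 50 µM TMZ, while U87 grew without it. STM2457, which inhibits METTL3, the main m6A methyltransferase of mRNA, was given to U87-R at 50 µM for 96 hours, and untreated U87-R and U87 carried a DMSO label. The labels do not say whether U87-R is a single clone, and resistance and the drug in its medium cannot be told apart. Separate cultures for the replicates are not stated either, so the p-values cover the spread among these libraries, which may be technical.

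Ribosomal proteins are made in equal amounts for a particle that every growing cell builds, and their mRNAs are short and very abundant. Most of these mRNAs start with a C followed by a run of pyrimidines, the terminal oligopyrimidine (TOP) tract, through which the growth kinase mTOR and the protein LARP1 govern their translation. METTL3 places internal m6A, often near stop codons. A different enzyme, PCIF1, methylates the base next to the cap where that base is A, and antibodies to m6A bind the resulting m6Am as well.

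Each library is a list of called bases with the authors' score, by a formula that the labels and headers do not state. Bases missing from a list carry no measurement. A gene with no such base was given a sum of 0, written below as listed at 0. Scores depend on how much of an RNA there is as well as on its methylation, and the 8 input libraries were not analysed here. The files give no read counts, so depth is unknown. The libraries held 105900 and 110875 called bases with STM2457, 149477 to 192697 in U87-R and 150135 to 182556 in U87. A gene without a known strand could be assigned no base. Of 9 glioma markers, 7 had a strand and 6 a called base, among them TNC, CD44 and EGFR. SOX2 had none, and GFAP and S100B had no strand. Of 10 markers of other cell types, 6 had a strand and 3 of these a called base. They were PECAM1 (2.77 to 49.1 over the 8 libraries), RBFOX3 and MBP. PTPRC, ALB and AIF1 had none, and HBB, CD3E, CDH1 and EPCAM had no strand.

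Ribosomal protein genes had few calls. At least 1 called base in any library was found in 50 of 84 (59.5%), against 11723 of 17447 protein-coding genes given a strand (67.2%). In all 8 libraries a base was called in 22 of 84 (26.2%), against 8226 protein-coding genes (47.1%). The 34 genes without a call included the 3 stalk genes, RPL3, a large-subunit protein that reaches toward the peptidyl transferase center, and RPS2 and RPS3 of the small subunit, and none of the 34 held a reproducible peak on the authors' deposited lists either. By subunit, 19 of 32 small-subunit and 31 of 49 large-subunit genes had a called base, and so did 4 of the 7 paralogs. Genes with a called base had a median of 9 different bases over the 8 libraries, against 23 for protein-coding genes with a call. These counts cover whole gene spans with their introns, and the genes compared were not matched for length. The expression of these genes was not measured here, so a missing call cannot be told apart from missing RNA, nor fewer cells from less RNA per cell. How reads that match several places in the genome were handled is not stated, so calls missing for that reason cannot be told apart either.

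The starts of these genes were set against the calls because the cap-adjacent base and the TOP tract both lie there. RefSeq promoter records (GRCh38.p14) gave 83 listed starts for 67 of the 84 genes. The first transcribed base was C at 52 starts (62.7%) and A at 15 (18.1%), against 11.4% C and 50.1% A over 22199 starts of all protein-coding genes. A TOP-like start, here a C that opens a run of at least 5 pyrimidines, was listed at 47 of 83 (56.6%), against 1008 of 22199 (4.54%). By this definition its first 5 bases hold no A, the base that carries m6A and m6Am. Of its first 6 bases only the last can thus be an A. No TOP-like start of a ribosomal protein gene had a called base among its first 6 bases, 0 of 47, which allows a share of up to 6.38%. Of their other starts, 6 of 36 (16.7%) had one. Over all protein-coding genes these shares were 36 of 1008 TOP-like starts (3.57%) and 4862 of 21191 other starts (22.9%). Called bases at the very first position were A in 3408 of 3628 cases (93.9%) over all protein-coding starts. Among the first 50 bases, 13771 of 28428 called bases (48.4%) were A over all protein-coding starts, and 16 of 33 in ribosomal protein genes. The rest were C, G or T, so a called base is not always an A. These shares are descriptions of listed starts, and several starts of a gene share that gene's RNA.

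**Figure D1:**
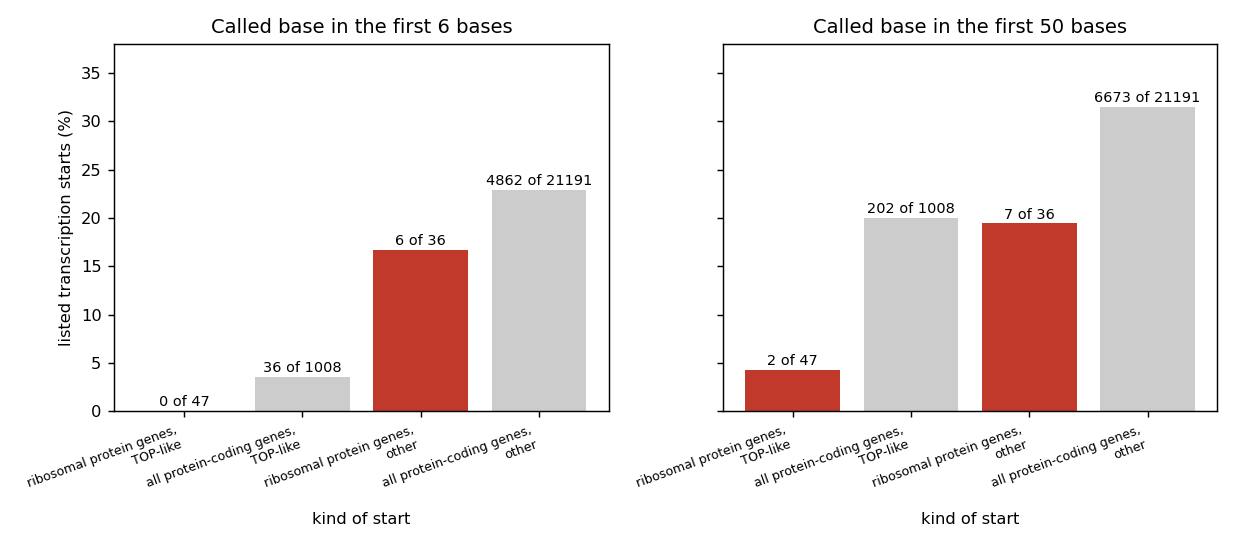
Percent of listed transcription starts with a called base in any of the 8 libraries among the first 6 bases (left panel) and the first 50 bases (right panel). Bars stand for ribosomal protein genes (red) and all protein-coding genes (grey), each split into TOP-like and other starts, with the counts above them; the bar of TOP-like ribosomal protein starts is at 0 of 47 in the left panel and 2 of 47 in the right.

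Of the ribosomal protein genes with listed starts, 5 with called bases near the start are printed first, 10 bases before the start and 20 from it, in the direction of transcription, because they show where on the sequence the calls lie. Capitals mark the bases called in at least 1 library. The windows are chr19:1438386-1438415 on the plus strand for RPS15, chr15:63157458-63157487 on the minus strand for RPS27L, chrX:72277229-72277258 on the minus strand for RPS4X, chr4:39458903-39458932 on the minus strand for RPL9 and chr13:27251548-27251577 on the plus strand for RPL21.
RPS15: aggcgcggacCAAAgcgatctcttctgagg
RPS27L: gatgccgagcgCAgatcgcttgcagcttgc
RPS4X: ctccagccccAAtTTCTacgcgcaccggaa
RPL9: taatgacgacAGacgttctttctttgctgc
RPL21: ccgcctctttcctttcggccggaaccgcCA

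In RPS15 the calls covered the first 4 transcribed bases, and in RPS4X and RPL9 they began at the first base, an A. In RPS27L they covered the second and the third base, and in RPL21, the only TOP-like start of the 5, none lay in the tract or in the first 6 bases. For comparison, 6 TOP-like starts without a called base in the window follow, with the tract in capitals: RPL13 and RPL29, whose internal calls are described below, RPL13A, RPS9, RPSA and the stalk gene RPLP0. Their windows are chr16:89560672-89560701 (plus), chr3:51995876-51995905 (minus), chr19:49487598-49487627 (plus), chr19:54200848-54200877 (plus), chr3:39406710-39406739 (plus) and chr12:120201092-120201121 (minus).
RPL13: gggccgcttcCTTTCCgctcggctgttttc
RPL29: cagcccctttCTCTTCCggttctaggcgct
RPL13A: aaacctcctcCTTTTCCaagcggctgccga
RPS9: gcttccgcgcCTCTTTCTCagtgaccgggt
RPSA: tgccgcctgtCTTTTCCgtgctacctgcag
RPLP0: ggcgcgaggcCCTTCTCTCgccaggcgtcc

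Over all ribosomal protein genes, 572 bases were called in any library, of 452349 in all. Of these, 230 (40.2%) were called in a single library and 37 (6.47%) in all 8, against 48.2% and 6.82% of all called bases. Per library, ribosomal protein genes held 196 and 176 called bases with STM2457, 239, 181 and 231 in U87-R, and 197, 235 and 227 in U87. The means were 186.0 ± 14.1 (SD, n = 2), 217.0 ± 31.4 and 219.7 ± 20.03 (SD, n = 3 each). Neither difference passed an exact two-sided permutation test, whose smallest possible p is 0.1: the ratio was 0.857 for STM2457 over U87-R (p = 0.3) and 0.988 for U87-R over U87 (p = 0.9). The treated libraries lay among or below the untreated ones, and U87-R replicate 2 lay in the range of the treated pair.

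The summed score of all 84 genes was 3569 and 3461 with STM2457, 5136, 3640 and 4798 in U87-R, and 3727, 4147 and 4256 in U87. Treated libraries were below all 6 untreated ones, and the ratio to U87-R was 0.777 (exact two-sided permutation p = 0.2). Their part of a library's called bases was 0.185% and 0.159% with STM2457, and 0.124%, 0.121% and 0.135% in U87-R. As a share of the library, the ratio was thus 1.36 (p = 0.1 by an exact two-sided permutation test, its lowest value), opposite in direction to the ratio of the numbers themselves.

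**Figure D2:**
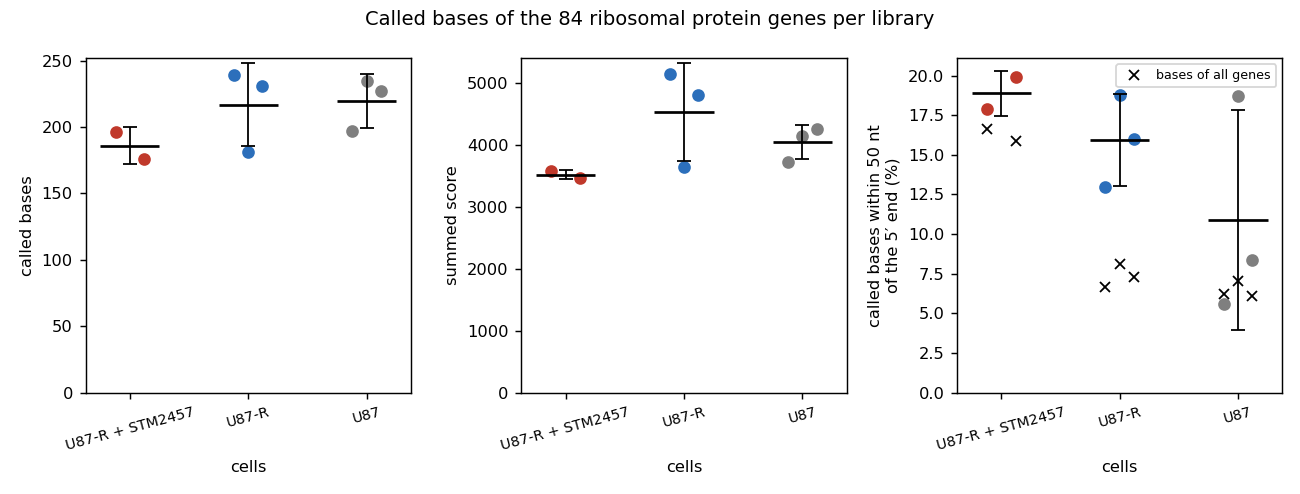
Called bases, summed score and percent of called bases in the 50 nt at the 5′ end over the 84 ribosomal protein genes, per library (points) with the mean (line) and SD (bars) of U87-R with STM2457, U87-R and U87. Crosses give the percent within 50 nt over all genes; in the treated libraries they lie at 16.7% and 15.9%, close to the ribosomal protein genes.

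Calls near the 5′ end of a gene, within 50 nt of the end of its annotated span, made up 17.9% and 19.9% of the ribosomal protein genes' called bases with STM2457, 13.0%, 18.8% and 16.0% in U87-R, and 5.58%, 18.7% and 8.37% in U87. U87 replicate 2 stood well above the other U87 libraries. The ratio was 1.19 for STM2457 over U87-R and 1.46 for U87-R over U87 (exact two-sided permutation p = 0.3 for both), and the U87-R to U87 ratio became 2.28 without U87 replicate 2. Over all genes the shares were 16.7% and 15.9% with STM2457, 6.64% to 8.13% in U87-R and 6.10% to 7.04% in U87. In untreated libraries the ribosomal protein genes were thus above that level except in U87 replicate 1, with 12 genes supplying all of these bases.

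The comparison of STM2457-treated with untreated U87-R asks how the marks on these genes answered METTL3 inhibition. Ribosomal protein genes moved in both directions. Of the 84, 41 passed the filter (a sum of scores of at least 10 in at least 2 libraries), and with limma on log2(sum + 1), Benjamini-Hochberg adjusted over all 10843 genes tested, 9 were lower and 9 higher with STM2457 at an adjusted p under 0.05. Over all genes tested, 38.5% were lower and 6.34% higher. The median log2 change was 0.42 over these 41 and -0.69 over all genes. Of the 9 higher genes, 5 reached the filter in treated libraries only, so they had to come out higher and are no support for a shift of the whole family. The same count over all higher genes is not given here. The higher calls rested on having both treated libraries: without STM2457 replicate 1, 8 genes were lower and 1 higher, and without STM2457 replicate 2, 9 were lower and 2 higher, with 36 genes left by the filter. With all 41 genes kept, an alternative added after seeing the data, these counts were 7 lower and 7 higher, and 9 lower and 7 higher. Relative to the median of each library, 7 were lower and 12 higher, and relative to its total score 7 and 13, which puts 63.2% and 65.0% of the calls on the higher side, against 50.0% without scaling. Over all genes the higher side held 38.8% and 46.4% of the calls with these scalings, against 14.1% without. The scalings moved the median log2 change of all genes to -0.13 and -0.01. They moved that of the ribosomal protein genes to 0.98 and 1.07, so both medians shifted upward by a similar amount.

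By subunit, 2 small-subunit genes were lower and 7 higher, while 7 large-subunit genes were lower and 2 higher; the difference between subunits was not tested. The small-subunit genes that were lower were RPS15A and RPS24, and the large-subunit genes that were higher were RPL11 and RPL37A.

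**Figure D3:**
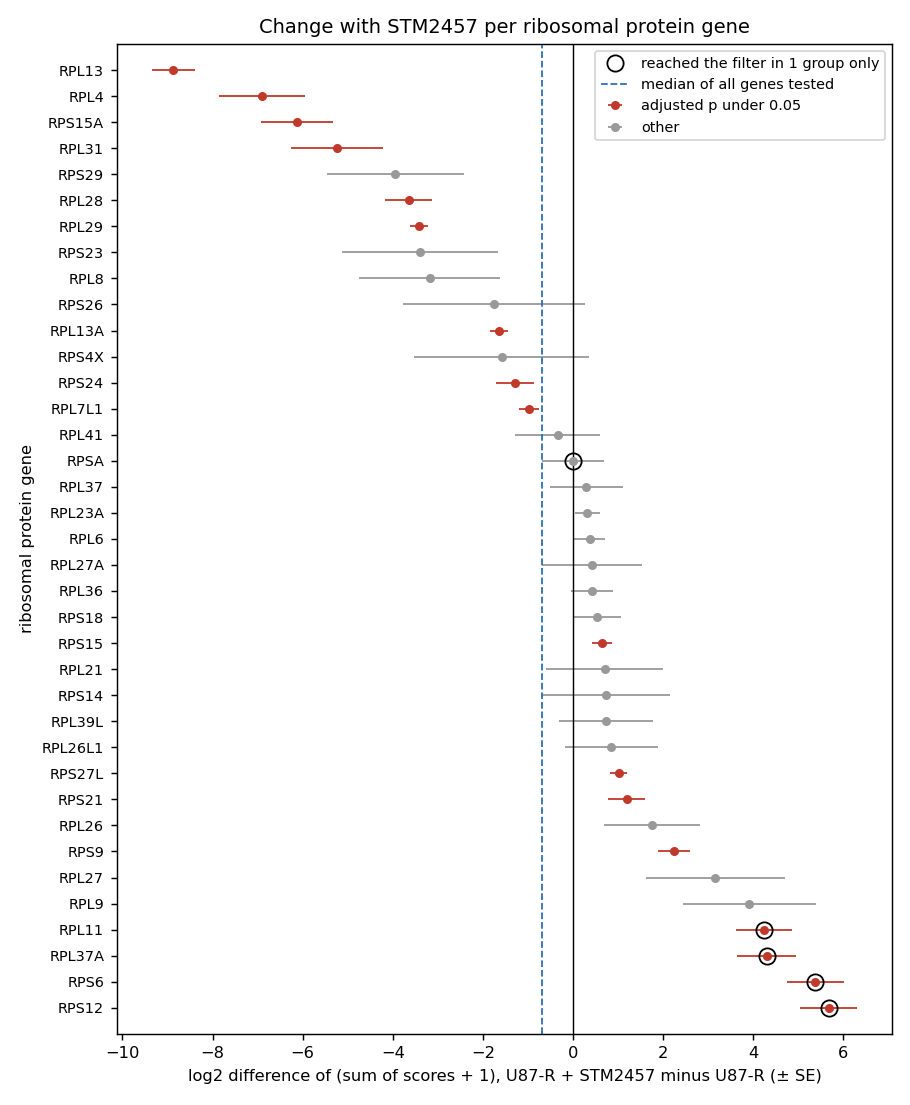
Log2 difference of (sum of scores + 1) between U87-R with STM2457 and U87-R for 37 of the 41 ribosomal protein genes tested, with SE bars, sorted by size. Red points have a limma adjusted p under 0.05, circles mark genes that reached the filter in 1 group only, and the dashed line is the median of all genes tested, -0.69; 9 red points lie to the left of 0 and 8 to the right.

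Among the genes that were lower, RPL13 (chr16:89560657-89566829, plus strand), a large-subunit protein, changed most. Its sums were 0 and 0.0702 with STM2457, 634.8, 261.1 and 676.6 in U87-R, and 584.2, 370.9 and 719.5 in U87. Its calls were all but gone from both treated libraries and strong in all 6 others (log2 change -8.87 ± 0.47 SE, limma adjusted p = 2.0e-05). Its 21 called bases lay in the interior and none within 50 nt of the 5′ end, and 7 of 19 tested bases were lower, from 2348 to 2590 nt from the 5′ end. The strongest, at position 89563056 and 2399 nt from the 5′ end, had a mean score of 0.0351 with STM2457, 61.7 in U87-R and 67.5 in U87. The authors' deposited lists gave RPL13 0 reproducible peaks with STM2457 and 16 each in U87-R and U87. RPL13 was already known from earlier results of these data, so this is not independent evidence.

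RPL4 (chr15:66498015-66504855, minus strand), which lines the exit tunnel of the large subunit, had sums of 0 and 3.99 with STM2457, 272.2, 273.6 and 249.0 in U87-R, and 104.6, 194.5 and 21.6 in U87. The treated and untreated U87-R libraries did not overlap (log2 change -6.89 ± 0.95, limma adjusted p = 5.86e-04). Of its 10 tested bases 6 were lower, 3816 to 5425 nt from the 5′ end. RPS15A of the small subunit was listed at 0 in both treated libraries and had 99.98, 38.3 and 85.4 in U87-R and 50.3, 14.9 and 58.7 in U87 (limma adjusted p = 4.64e-04). RPL31 was also listed at 0 with STM2457, and had 84.6, 7.64 and 70.4 in U87-R and 24.9, 21.0 and 19.1 in U87 (adjusted p = 0.00334). Its span overlaps that of TBC1D8, and with scores of at least 10 alone its call was lost (adjusted p = 0.163).

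RPL28 and RPL29 are both of the large subunit. RPL28 had sums of 18.9 and 20.3 with STM2457, 409.0, 125.6 and 330.8 in U87-R, and 267.8, 138.3 and 284.0 in U87 (log2 change -3.65 ± 0.52, limma adjusted p = 6.76e-04). Its calls averaged 1.5 bases per treated library and 19.3 per U87-R library. Nearly all of the treated sum came from 1 base of RPL28, at position 55388245, with 18.5 and 20.3 with STM2457, 0, 0 and 9.03 in U87-R, and 0 in all U87 libraries. All other RPL28 bases called in U87-R had no call in either treated library. RPL29 (chr3:51993522-51995895, minus strand) had 37.4 and 30.3 with STM2457, 404.2, 341.6 and 362.0 in U87-R, and 397.5, 351.5 and 392.9 in U87. The 6 untreated RPL29 libraries lay close together and the treated ones far below them (log2 change -3.41 ± 0.20, limma adjusted p = 2.8e-05). Of its 7 called bases, 6 form a run 2146 to 2151 nt from the 5′ end, 222 to 227 nt before the end of the gene, and all 6 were lower. The number of RPL29 bases called was 5.0 on average with STM2457 and 6.67 in U87-R and did not pass as a number (limma adjusted p = 0.274).

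RPL13A (chr19:49487608-49492308, plus strand), which besides its place in the ribosome takes part in translational silencing, stood at 161.5 and 154.3 with STM2457, 557.1, 409.3 and 537.7 in U87-R, and 398.3, 314.9 and 431.2 in U87. The treated libraries were below all others (log2 change -1.65 ± 0.20, limma adjusted p = 3.65e-04). RPL7L1, a paralog of RPL7, had 209.7 and 229.1 with STM2457, 539.9, 380.8 and 395.6 in U87-R, and 352.5, 510.9 and 407.0 in U87 (log2 change -0.98 ± 0.22, limma adjusted p = 0.00637). Its calls near the start went the other way from those near its end: the bases 295 to 318 nt from the 5′ end summed to 67.0 and 61.1 with STM2457 and 23.9, 4.81 and 22.6 in U87-R. From 6933 nt on, the RPL7L1 sums were 142.7 and 168.0 with STM2457 and 516.0, 376.0 and 373.0 in U87-R. The call of RPL7L1 was lost with libraries centred (adjusted p = 0.0596) or scaled to totals (adjusted p = 0.169). By number of called bases the log2 change of RPL7L1 was -0.04 (limma adjusted p = 0.885) and that of RPL13A -0.46 (adjusted p = 0.084), and neither passed.

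RPS24, a small-subunit protein, had sums of 23.2 and 52.3 with STM2457, 89.0, 79.4 and 91.3 in U87-R, and 87.2, 122.1 and 94.1 in U87 (log2 change -1.29 ± 0.43, limma adjusted p = 0.0371). Both treated libraries were below all untreated ones, but the change was absent from the highest score per gene (log2 change -0.09, limma adjusted p = 0.83). The RPS24 call also ended with the replicate number as a block (adjusted p = 0.0722), with either scaling (0.183 and 0.252), and without STM2457 replicate 1 (0.284), U87-R replicate 1 (0.0779), U87-R replicate 3 (0.0934) or U87 replicate 3 (0.0553).

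**Figure D4:**
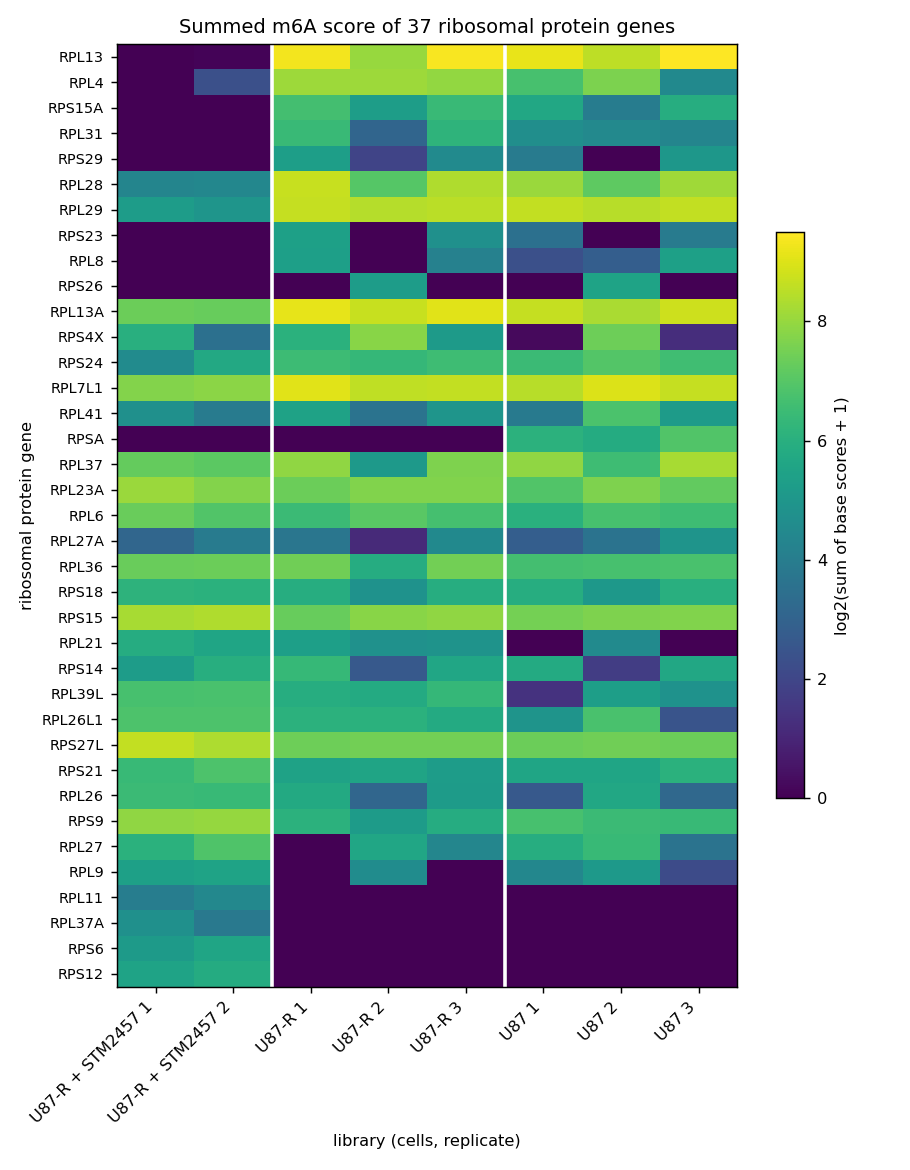
Log2 of (sum of scores + 1) for 37 of the 41 ribosomal protein genes that passed the filter, 1 row per gene and 1 column per library, ordered by the change with STM2457. Dark cells are genes listed at 0 or near 0; RPL13 is dark in both treated columns, and RPL11, RPL37A, RPS6 and RPS12 are dark in all 6 untreated columns.

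Among the genes that were higher, RPS9 (chr19:54200858-54207647, plus strand), a small-subunit protein that helps keep decoding accurate, had sums of 241.8 and 254.0 with STM2457, 67.0, 35.7 and 57.7 in U87-R, and 104.5, 88.3 and 82.4 in U87. The treated libraries were above all others (log2 change 2.24 ± 0.35, limma adjusted p = 0.00113). Of its 11 tested bases 6 were higher, between 335 and 722 nt from the 5′ end. The strongest, at position 54201193, had a mean score of 68.0 with STM2457, 27.6 in U87-R and 31.2 in U87. On the authors' deposited lists RPS9 had 5 reproducible peaks with STM2457 and 0 in each of the other groups.

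RPS27L (chr15:63148249-63157477, minus strand), a paralog of RPS27 induced by p53, had sums of 392.9 and 322.2 with STM2457, 169.8, 178.3 and 178.3 in U87-R, and 163.2, 172.2 and 164.5 in U87. Untreated libraries lay close together and both treated ones were above them (log2 change 1.02 ± 0.19, limma adjusted p = 0.00254). All 7 tested bases of RPS27L were higher, but only 3 of them had calls in untreated libraries. The 3 near the start, marked in its printed sequence or just beyond it, summed to 270.0 and 262.1 with STM2457, 169.8, 178.3 and 178.3 in U87-R, and 163.2, 172.2 and 164.5 in U87. The other 4 lay 955 to 969 nt from the start and passed the filter through treated libraries alone, which fixed their direction. All calls of RPS27L there, 955 to 972 nt from the start, were in treated libraries only, and 74.4% of the RPS27L sum came from the first 50 nt in treated cells, against 100% in U87-R. Without STM2457 replicate 1 its call was lost (adjusted p = 0.0579).

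RPS15 (chr19:1438396-1440495, plus strand), a protein of the small-subunit head, had sums of 301.9 and 332.0 with STM2457, 155.4, 222.8 and 240.3 in U87-R, and 181.2, 203.0 and 208.4 in U87. The treated libraries were above all untreated ones (log2 change 0.64 ± 0.23, limma adjusted p = 0.0477). The bases at the start, the CAAA printed in capitals above, carried 94.0% of the treated and 99.7% of the untreated U87-R sum. The second base, at position 1438397, had a mean score of 133.2 with STM2457, 87.7 in U87-R and 81.2 in U87 (limma adjusted p = 0.0154), and the first base, at position 1438396, 120.3, 89.4 and 86.3 (adjusted p = 0.0215). The gene-level call of RPS15 was lost in 13 alternatives, among them the number of called bases (log2 change 0.37, limma adjusted p = 0.461), the replicate block (adjusted p = 0.0514) and leaving out STM2457 replicate 1 (0.151), STM2457 replicate 2 (0.237), U87-R replicate 1 (0.0959) or any U87 library (0.0559 to 0.0666).

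RPS21 of the small subunit had sums of 83.2 and 112.7 with STM2457, 43.8, 45.1 and 37.3 in U87-R, and 46.7, 46.5 and 66.1 in U87. Treated libraries were above all others (log2 change 1.19 ± 0.42, limma adjusted p = 0.0446). The main RPS21 base, at position 62387641 of chromosome 20, had mean scores of 58.2, 21.0 and 24.2 in U87-R with STM2457, U87-R and U87 (adjusted p = 0.00311). By number of called bases RPS21 had a log2 change of -0.07 (limma adjusted p = 0.89). The gene's call was lost with the replicate block (adjusted p = 0.101) and when any of the 8 libraries was left out (0.0505 to 0.244). On the authors' deposited lists RPS21 had 7 reproducible peaks with STM2457 and 0 in the other groups.

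The remaining 5 higher genes were listed at 0 in all 6 untreated libraries, so no fold can be given. RPS12, a small-subunit protein, had sums of 44.2 and 56.5 with STM2457, and RPS6, the substrate of the S6 kinases, had 35.2 and 46.7. RPL37A had 26.0 and 13.4, and RPL11, which with RPL5 binds and inhibits MDM2, had 15.3 and 20.8. They passed the filter through the treated libraries alone, which fixed their direction, so their p-values are not given. The treated sums came from few bases: RPS6 had 3 called bases in all, RPL37A 3, RPL11 2 and RPS12 7. None of the 5 held a reproducible peak of the authors in any group. RPL19 was also called in both treated and in no untreated library but stayed below the filter.

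In the opposite pattern, 9 genes were called in untreated libraries and in no treated one: RPS15A, RPL31, RPSA, RPS29, RPS23, RPL8, RPS26, RPL22 and RPL7. Untreated libraries were more numerous and each held more called bases than either treated one. The same count over all protein-coding genes is not given here, so this number is no result about the family. RPS29, all of whose called bases also lie in the pseudogene RPL32P29 (38.8, 2.89 and 22.4 in U87-R), RPS23 (41.4, 0 and 26.4) and RPL8 (40.3, 0 and 16.9) had limma adjusted p of 0.0642, 0.140 and 0.130, with U87-R replicate 2 low in each. RPL22 and RPL7 stayed below the filter.

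At single bases the same model was fitted to 188742 bases, of which 284 lay in ribosomal protein genes. With STM2457, 44 of these 284 (15.5%) were lower and 54 (19.0%) higher at a limma adjusted p under 0.05, against 16.9% lower and 6.65% higher over all tested bases. Of the 54 higher bases, 41 were not called in any untreated library, so the filter alone let them come out higher. The same count over all 12546 higher bases is not given here, so 19.0% against 6.65% is no result about the family. The filter needs 2 or more libraries of a group, so these 41 could not be tested with 1 treated library left out. Without STM2457 replicate 1, 32 bases were lower and 1 higher, and without STM2457 replicate 2, 34 were lower and 2 higher, of 234 tested. Both directions occurred within 5 genes, among them RPL13A, RPL36, RPL37 and RPL7L1. Within 50 nt of the 5′ end 1 of 35 tested bases was lower and 6 were higher, in RPS15, RPS27L and RPL9. Of these 6, 1 was not called in any untreated library. Farther in, 43 of 249 were lower, in 12 genes, and 48 higher, in 17 genes. This split is not given over all tested bases, so it is no result about the family. Over all genes, bases within 50 nt made up a mean of 16.3% of called bases with STM2457 and 7.36% in U87-R.

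RPL36 (chr19:5690295-5691875, plus strand) of the large subunit, chosen as an example after its values were seen, shows both directions within a single gene. Its sums were 159.0 and 163.2 with STM2457, 170.4, 57.4 and 175.1 in U87-R, and 100.9, 104.7 and 109.1 in U87. Treated libraries lay inside the range of U87-R, and the gene-level change did not pass (log2 change 0.42 ± 0.46, limma adjusted p = 0.481). Calls 1030 to 1145 nt from the 5′ end of RPL36 were in treated libraries only and gave 6 higher bases. These 6 passed the filter through the treated libraries alone, which fixed their direction. At 1322 nt, position 5691617, the mean score was 0 with STM2457, 32.2 in U87-R and 25.4 in U87 (limma adjusted p = 2.61e-04), while the neighbour at 1321 nt, position 5691616, had 18.6, 32.2 and 25.4 (adjusted p = 0.177). RPL37 had 5 higher bases at 956 to 1024 nt and 1 lower at 9198 nt.

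The authors' reproducible peaks, which join the libraries of a group and carry no replicate error, covered 4 of the 48 higher bases farther than 50 nt in with STM2457 and 1 in U87-R. Of the 41 higher bases not called in untreated libraries 1 lay in a treated peak. Near the 5′ end 5 of the 6 higher bases lay in a treated peak and 4 in a U87-R peak. Of the 44 lower bases, 7 lay in a treated and 19 in a U87-R peak. Of all 284 tested bases, 66 lay in a treated and 93 in a U87-R peak, so most tested bases of any kind were outside these peaks.

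**Figure D5:**
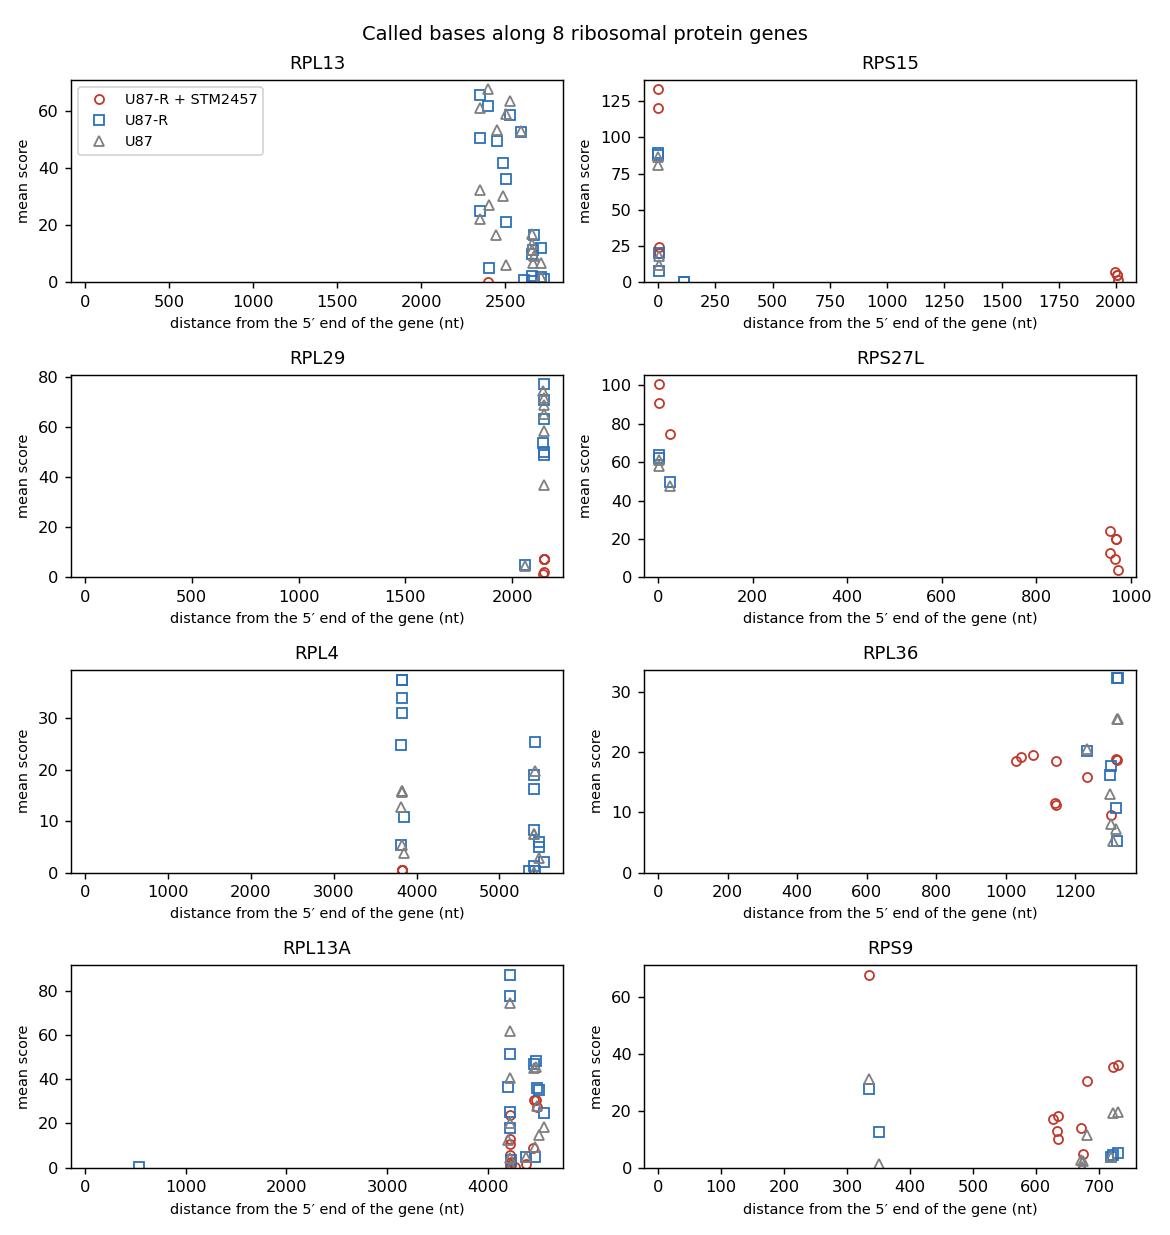
Mean score of each called base (vertical axis) against its distance from the 5′ end of the gene in nt (horizontal axis) for 8 ribosomal protein genes in U87-R with STM2457 (circles), U87-R (squares) and U87 (triangles). RPL13, RPL29, RPL4 and RPL13A lose or lower their interior calls with STM2457, RPS15 and RPS27L keep theirs at the start, and RPL36, RPS27L and RPS9 show circles at places with no or lower untreated calls.

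RPS15, RPS27L, RPL23A and RPS4X were among the 5 genes with the highest summed score within 50 nt of the 5′ end. RPL23A, a protein at the mouth of the exit tunnel, had 261.5 and 211.7 there with STM2457, 163.2, 207.8 and 198.0 in U87-R, and 119.5, 201.3 and 146.1 in U87. Its treated libraries were above all untreated ones, but the gene did not pass (log2 change 0.32 ± 0.27, limma adjusted p = 0.365) except with libraries centred (0.0352) or scaled to totals (0.0197). RPS4X, the X-linked copy of the RPS4 gene, had 63.3 and 10.5 there with STM2457, against 66.1, 222.6 and 17.9 in U87-R and 0, 165.6 and 0 in U87. In RPS4X the replicate 2 libraries of U87-R and U87 were the highest of their groups, and the gene did not pass (limma adjusted p = 0.532).

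Replicate 2 libraries also stood apart in other members. RPS26 was called in U87-R replicate 2 (37.1) and U87 replicate 2 (44.3) and in no other library. RPL21 had 22.0 within 50 nt of its 5′ end in U87 replicate 2 and 0 in the other U87 libraries. The part of the replicate 2 libraries in these values was not tested beyond leaving them out. In RPS4X, 64.3% of called scores equalled that of the neighbouring base exactly, in RPSA 77.8%, and over all called bases of ribosomal protein genes 9.45%, against 1.73% of all called bases, so runs of adjacent calls in these genes are not separate measurements.

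Other gene groups of the same pathway, from lists drawn up for this description, were set beside these counts. Among 77 mitochondrial ribosomal protein genes, whose products form the separate ribosome of the mitochondrion, 69 had a called base (89.6%), and of 67 tested 25 were lower and 8 higher with STM2457 (median log2 change -0.18). MRPS24 had 89.4, 126.6 and 136.3 and MRPS34 85.8, 96.0 and 96.9 in U87-R, and both were listed at 0 with STM2457 (limma adjusted p = 5.69e-05 and 8.81e-05). MRPL52 went the other way, with 110.1 and 88.0 with STM2457 and 2.19, 0.454 and 0 in U87-R, and passed the filter through treated libraries alone. Of 23 other TOP mRNA genes, 20 had a called base, and of 19 tested 8 were lower and 1 higher (median log2 change -0.40). RACK1, a scaffold on the small subunit, was listed at 0 with STM2457 and had 73.1, 90.1 and 144.3 in U87-R (adjusted p = 0.00791). The higher gene, FAU, which encodes the small-subunit protein eS30 fused to a ubiquitin-like protein, had 58.5 and 76.8 with STM2457, no called base in U87-R (adjusted p = 0.017), and 0, 68.8 and 0 in U87, so that U87 replicate 2 was as high as the treated libraries.

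Of 36 ribosome biogenesis genes, 33 had a called base and all 33 were tested, with 12 lower and 4 higher (median log2 change -0.61). DDX21, a nucleolar helicase, had 60.8 and 41.2 with STM2457 and 340.8, 356.8 and 301.1 in U87-R (limma adjusted p = 8.69e-05). LTV1, a factor of small-subunit export, had 59.3 and 11.7 with STM2457, no called base in U87-R, and 0, 7.99 and 4.86 in U87. It passed the filter through treated libraries alone. Of 12 regulators of ribosomal proteins and TOP mRNAs 9 were tested, of which 3 were lower. LARP1, which binds the cap and TOP tract, had 1169 and 1160 with STM2457 and 2170, 1817 and 2025 in U87-R (log2 change -0.78 ± 0.12, adjusted p = 8.76e-04). MDM2, the ubiquitin ligase bound by free RPL5 and RPL11, had 462.8 and 581.4 with STM2457 and 1419, 958.4 and 1187 in U87-R (adjusted p = 0.00181).

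The comparison of U87-R with U87 asks what sets the resistant cells apart from the parental line, and here the ribosomal protein genes changed little. Of the 41 tested, 1 was lower in U87-R, RPSA, and none higher, against 0.424% and 0.996% of all genes, and 5 (12.2%) had an unadjusted p under 0.05 by limma, against 12.6% of all genes. The median log2 change was 0.05 over the 41 and 0.12 over all genes. No base of a ribosomal protein gene passed, while over all bases 0% were lower and 0.00053% higher. An unadjusted p under 0.05 was found for 33 of 284 member bases (11.6%) and for 11.0% of all bases. In the other gene groups above no gene passed by limma, and 3 mitochondrial ribosomal protein genes, 4 other TOP mRNA genes, 4 ribosome biogenesis genes and 1 regulator had an unadjusted p under 0.05.

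RPSA (chr3:39406720-39412542, plus strand), which encodes a small-subunit protein also known as a precursor of the laminin receptor, was listed at 0 in all 3 U87-R and both treated libraries and had 68.0, 55.8 and 119.5 in U87. It passed the filter through U87 alone, which fixed its direction. Its 11 called bases included a run 5226 to 5245 nt from the 5′ end with equal scores at adjacent positions. RPSA has many processed copies in the genome that could share its reads, so the values are uncertain, and its difference was already known from earlier results of these data. Copies of the other ribosomal protein genes elsewhere in the genome were not examined. Without U87 replicate 2, 2 genes were also called higher in U87-R, among them RPL21 (log2 change 5.02, limma adjusted p = 0.0127), which also passed with scores of at least 10 (4.84, adjusted p = 0.0119). With all libraries the adjusted p of RPL21 was 0.25.

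RPL37 was among the 10 genes with the highest mean sums, with RPL13, RPL7L1, RPL13A, RPL29, RPS15, RPS27L, RPL28 and RPL23A. RPL37, a small zinc-binding protein of the large subunit, had 152.6 and 136.7 with STM2457, 238.5, 33.5 and 200.8 in U87-R, and 239.9, 91.5 and 303.9 in U87. Both replicate 2 libraries were the lowest of their groups, and RPL37 did not pass in either comparison (limma adjusted p = 0.792 and 0.77). With RPL37, 22 tested genes were called in neither comparison and had mean sums between 10.2 (RPS26) and 190.2 (RPL23A) over the 8 libraries, and 9 genes with a called base (RPL22, RPL5, RPL19, RPL17, RPS19, RPL14, RPL7, RPL30 and RPL36A) did not reach the filter. The bases of RPL17 and RPL36A also lie in readthrough genes of the same strand.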

How the data were processed

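m6A-eCLIP of polyA RNA from U87, U87-R and STM2457-treated U87-R was made by a commercial provider, per the labels' protocols. The submitters' processing notes name UMI-tools, cutadapt, STAR and hg38; no versions, settings, base caller or normalization are stated there or in the labels. For each library the authors deposited its called bases with a score, which the values show to be the smallest of 4 scores listed beside it. They also deposited lists of reproducible sites and peaks per group, with the fraction of libraries that passed and a joined score; these join replicates and have no error.

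Bases were assigned to a gene's RefSeq span (GRCh38.p14) on its strand, from the promoter table for 67 of the 84 genes and from general knowledge for 17. For other genes without a promoter record, the strand was that of at least 80% of at least 5 called bases. Spans include introns, and exons were not used here. In 8091 of 8297 genes with both kinds of strand they matched. Another 52 bases in spans of the 84 genes lay on the other strand and were left out. Scores were summed per gene and library. Sums that reached 10 in at least 2 libraries were tested in R 4.3.3 by limma 3.58.1 (trended variance prior) on log2(sum + 1), 1 mean per group, without scaling, and Benjamini-Hochberg adjustment over all 10843 genes. On this scale low sums understate changes, and the log2 change of a gene listed at 0 in a group depends on the pseudocount. Single bases were tested likewise where 2 or more libraries of any group listed them. Counts per library were compared with exact permutation tests. Distance is from the end of the span, with 0 at the first base.

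By the rule that every same-numbered pair exceed 0.1, replicate numbers pair U87-R with U87: deviations from the group means correlated at 0.105, 0.312 and 0.101. Replicate 2 alone stood apart, since U87-R replicate 1 correlated more with U87 replicate 3 (0.14), and U87-R replicate 3 with U87 replicate 1 (0.121). Those of STM2457 with U87-R did not (-0.028 and -0.025). The members, gene lists and tests were chosen with earlier results of these data known. Named genes were all called members, the 10 highest mean sums, RPSA, RPL13, and the 5 highest sums within 50 nt of the 5′ end. Values of a few genes are included in counts but not reported here by name. Alternatives changed the pseudocount, filter, scaling, block, score minimum, strand and library set.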

Additional observations from a re-analysis of the deposited data

How the results depend on the processing

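With the replicate number as a block, 15 members changed with STM2457 (8 lower, 7 higher) instead of 18, 1 differed between U87-R and U87 as without it, and 88 and 0 bases passed instead of 98 and 0; RPS15, RPS21 and RPS24 lost their calls. Leaving out 1 library at a time gave 9 to 22 members and 33 to 106 bases for STM2457, lowest without a treated library, with most of the loss among the higher ones, where genes present in treated libraries alone no longer reach the filter. With the genes of the full filter kept, an alternative added after seeing the data, as were those without both replicate 2 libraries, the count was 14 without STM2457 replicate 1 and 16 without STM2457 replicate 2. In those fits the lone treated library was assumed to vary like the other groups. Between U87-R and U87 it gave 1 to 3 members and 0 to 11 bases. Without both replicate 2 libraries of U87-R and U87, 3 members and 22 bases (8 lower, 14 higher) differed there, and 2 members with scores of at least 10. As shares of the library's total, the STM2457 ratios turned round, to 1.36 for called bases and 1.19 for the summed score; the share within 50 nt had a ratio of 1.63 by summed score. The U87-R to U87 ratio of called bases, 0.988, passed 1 with scores of at least 10 (1.12) and without both replicate 2 libraries (1.11), and was 0.938 to 1.07 without 1 library. The share within 50 nt gave 1.18 to 2.28 without 1 library and 2.08 without both replicate 2 libraries. RPS21 turned round by number of called bases (-0.069, log2). Over the named members, 977 of the alternative results kept direction and call, 43 lost a call and 5 gained one (among them RPL23A, by scaling). Causes were not tested. Depth is unknown.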
